A study of Mus musculus with 6 samples.

Results

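Hedgehog is a secreted ligand signal, and the genes described here are its ligand Shh, the receptor genes Ptch1, Smo and Hhip, the intracellular inhibitor gene Sufu, and the transcription factor genes Gli1, Gli2 and Gli3. They were measured in the back skin of mice of strain C57/BL that received either cyclosporin A, an immunosuppressive calcineurin inhibitor, or ethanol as the control. The skin was taken 2, 4 or 7 days after application, and no other allele or agent is named in the labels. The series has 6 dual-colour arrays, 2 for each day, each setting 1 cyclosporin A sample (Cy5) against 1 ethanol sample of its day (Cy3). The members were all probes whose accession maps to these 8 genes. Of the 8 genes, 7 had a probe on the array (9 probes) and none mapped to Gli2. Gli3 was not well above background (the scanner software's flag, at 0.5 or more of a probe's spots) in either channel on any array, which left 6 members among 22750 genes tested.

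In the hedgehog pathway the ligand binds the receptor Patched, which otherwise holds Smoothened inactive. Released Smoothened acts through the primary cilium to free the Gli transcription factors from Sufu. Gli1, Ptch1 and Hhip are themselves switched on by the pathway, and the products of Ptch1 and Hhip bind the ligand and limit the signal. In skin, Shh made by the epithelium of the hair follicle signals to the epithelium around it and to the dermal papilla, and it is needed for follicle growth.

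Promoter sequence from RefSeq was at hand for 6 of the 8 genes, and not for Shh or Gli1. It is shown for Hhip and Ptch1, textbook targets of the pathway that differed in whether they passed the test. Each run is the 250 bases before the transcription start in GRCm38.p6, on the minus strand of the genome and 5′ to 3′ along the gene, at chr8:80058009-80058258 for Hhip and chr13:63565736-63565985 for Ptch1. Capitals mark the 9 letters closest to the Gli consensus letters GACCACCCA on either strand. Where several stretches were equally close, as for Ptch1, only the first is marked.
Hhip: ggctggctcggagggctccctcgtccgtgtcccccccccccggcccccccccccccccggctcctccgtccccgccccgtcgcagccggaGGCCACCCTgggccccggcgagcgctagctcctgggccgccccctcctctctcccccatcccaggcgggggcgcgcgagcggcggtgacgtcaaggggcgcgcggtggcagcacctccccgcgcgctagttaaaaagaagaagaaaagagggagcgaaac
Ptch1: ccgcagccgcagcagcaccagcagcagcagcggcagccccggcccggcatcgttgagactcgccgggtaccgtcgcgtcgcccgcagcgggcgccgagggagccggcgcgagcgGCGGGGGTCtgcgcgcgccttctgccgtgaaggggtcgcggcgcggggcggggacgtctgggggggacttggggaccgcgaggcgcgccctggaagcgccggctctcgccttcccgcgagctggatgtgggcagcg
The capitals differ from the consensus at 2 letters for Hhip and at 3 for Ptch1, where they lie on the opposite strand. Over windows of 300 bases (250 before to 50 after the start), 0 of the 6 members' windows held the consensus with 0 or 1 mismatch. Of all 32851 windows, 0.253% held it exactly, 6.74% with up to 1 mismatch and 58.3% with up to 2. Among the other pathway genes described below, 34 windows of 26 genes gave 0 exact matches and 2 with 1 mismatch, in Prkar1a and Ulk3.

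Ratios are given as log2 of the cyclosporin A signal over the ethanol signal, so that 0 means equal signal. A call means an adjusted p under 0.05 (Benjamini-Hochberg, over all genes) in a limma fit of 1 mean per day. Each array had 45018 spots and 0 were saturated. The median intensity was 203 to 277 in the ethanol channel and 134.5 to 187 in the cyclosporin A channel. Well above background were 43.2% to 56.4% of probes with ethanol and 59.6% to 68.8% with cyclosporin A. Precision is limited by having 2 arrays a day. The skin markers (keratins of the epidermis and dermal collagens) were well above background for 8 of 8 genes in every sample. The dyes were never swapped, so a dye effect and a treatment effect cannot be told apart. Days 2 and 4 lay on 1 slide and day 7 on another, so slide and day 7 cannot be told apart either. Nothing in the labels says that the samples came from separate animals, in which case p-values measure only the spread between these samples. In whole skin, fewer cells of a type and less RNA per cell cannot be told apart.

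At day 7 the transcripts of the ligand Shh, of the ligand-binding inhibitor Hhip and of the transcription factor Gli1 were higher with cyclosporin A. The fitted means stand for at least 3.51-fold, 2.12-fold and 1.59-fold. Ptch1 stood at 0.32, and Smo and Sufu stood at -0.02 and 0.06, and these 3 did not pass the test. So 3 of 6 tested members were called, all higher, where 2.99% of all genes were called at day 7 and 2.35% were called higher. Of the 6, 5 entered the test through the cyclosporin A channel (all but Smo): Shh, Ptch1 and Hhip were not well above background with ethanol on any array, and Gli1 and Sufu only on 1. That count is therefore a description. Folds are written as at least, since the ethanol signal of these probes at day 7 was not well above background and gives only a bound. The bound covers that dim side of the mean, and not the spread between arrays or the processing. In log2, day 7 replicate 1 alone was at 1.38, 0.79 and 0.51 for Shh, Hhip and Gli1. Scale normalization gave day 7 means of 1.68, 1.01 and 0.62. The 3240 genes whose ethanol signal was never well above background had a median ratio of 0.08 at day 7, with 64% above 0 and 2.53% called.

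**Figure D1:**
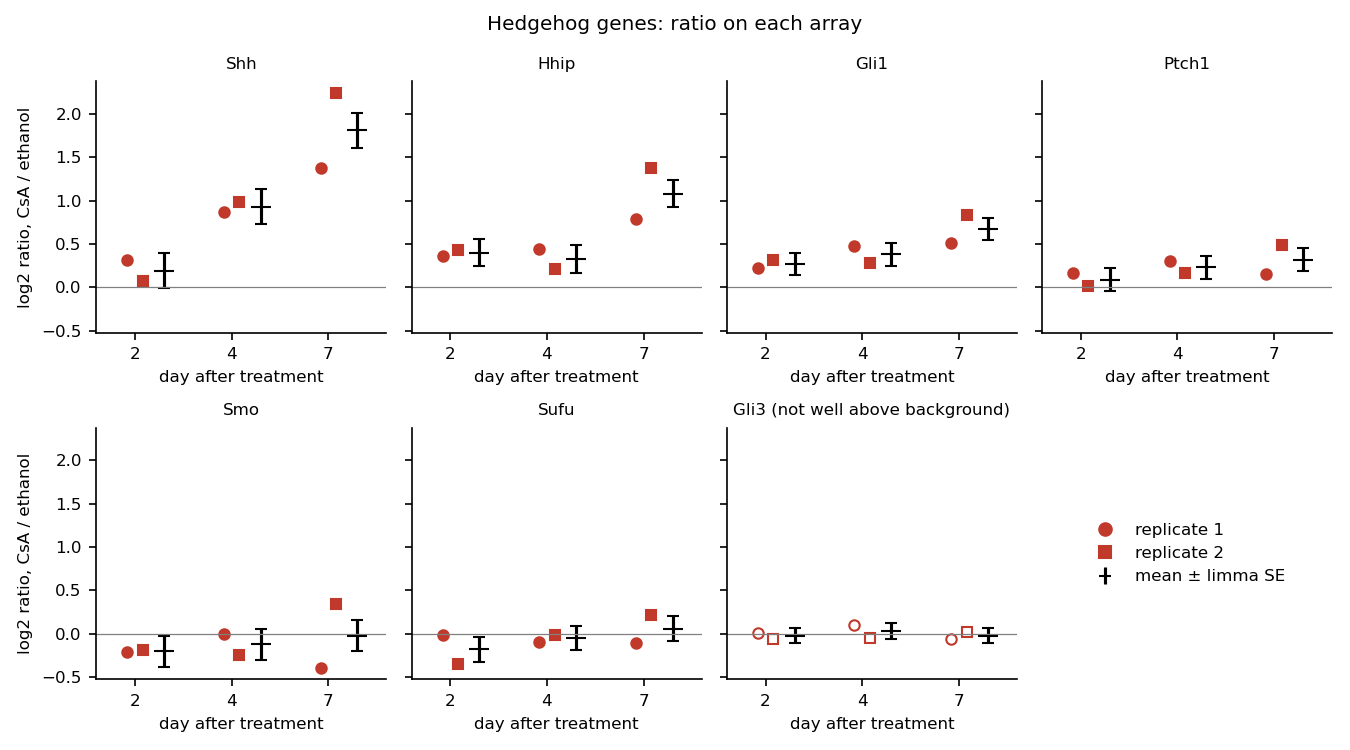
Log2 ratio of cyclosporin A over ethanol (y axis) by day after treatment (x axis) for each measured hedgehog gene. Circles and squares are the arrays of replicate 1 and 2, and the black mark is the day mean ± limma SE. Shh is at 1.38 and 2.24 on the day 7 arrays, while Smo and Sufu have points on both sides of 0 there, and Gli3 (open symbols) stays within -0.06 to 0.1.

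Shh, the ligand gene, had ratios of 0.32 and 0.07 on the arrays of day 2, 0.87 and 0.98 on those of day 4, and 1.38 and 2.24 on those of day 7. All 6 were above 0, both day 4 arrays were above both of day 2, and both day 7 arrays were above both of day 4. The day mean was 0.19 at day 2 (SE 0.2, adjusted p = 0.785), 0.93 at day 4 (SE 0.2, adjusted p = 0.179) and 1.81 at day 7 (SE 0.2, adjusted p = 0.0119). Fitted on the day 7 slide alone, Shh kept its call (1.81, adjusted p = 0.0288). On the scanner software's processed signals the ratio was larger and missed the threshold (3.99, SE 0.57, adjusted p = 0.0504). The deposited log ratios gave the same 3.99 and kept the call (adjusted p = 0.0357). The day 4 mean was 2.86 on both, and the day 2 direction turned on processed signals (-0.15) and under median centring (-0.2).

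The Shh probe was printed at 10 spots on each array, which gives the technical spread within an array. Over those spots the SD of the log2 ratio was 0.15 and 0.25 on the day 2 arrays, 0.26 and 0.28 on those of day 4, and 0.38 and 0.21 on those of day 7. On the arrays of days 4 and 7 the ratio was above 0 at 10 of 10 spots, while on day 2 replicate 2 it was above 0 at 6 of 10. Well above background with cyclosporin A were 8 and 0 of the 10 spots at day 2, and 10 of 10 on every array of days 4 and 7, against 0 of 10 with ethanol on every array. The means of the day 7 arrays, 1.38 and 2.24, lay further apart than the SD over spots on either.

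**Figure D2:**
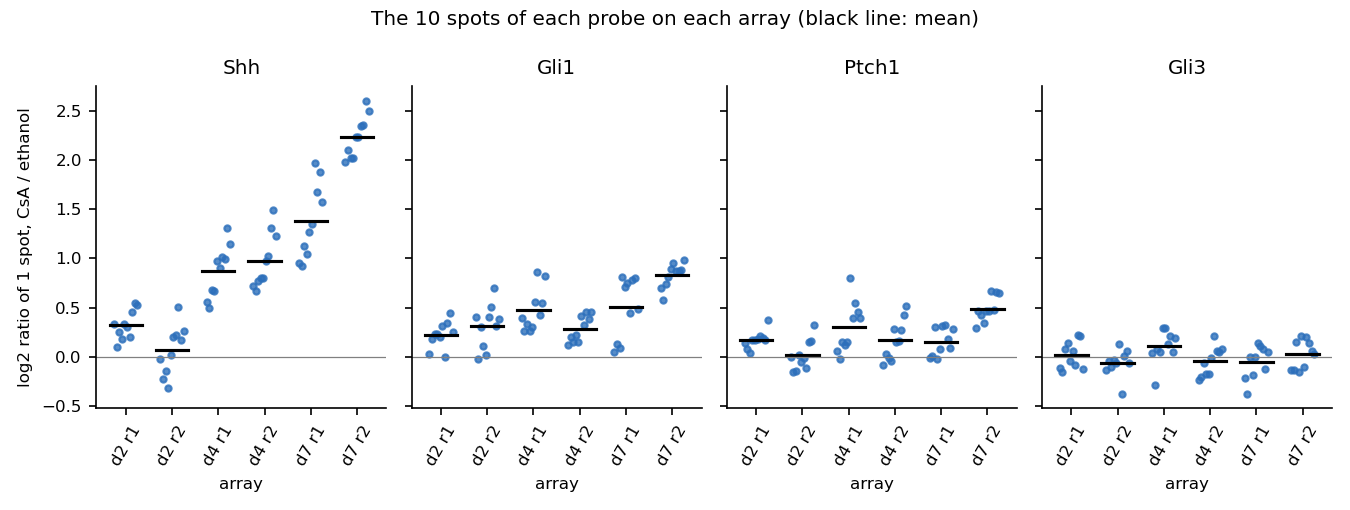
Log2 ratio of single spots (y axis) on each of the 6 arrays (x axis, d for day and r for replicate) for the 4 probes printed at 10 spots; the black line is their mean. The Shh spots lie above 0 on every array of days 4 and 7, and those of Gli3 lie around 0 on all 6 arrays.

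In the ethanol channel the log2 intensity of Shh was 6.49 and 6.45 at day 2, 6.42 and 6.47 at day 4, and 6.75 and 6.67 at day 7. In the cyclosporin A channel it was 6.81 and 6.52 at day 2, 7.29 and 7.45 at day 4, and 8.13 and 8.91 at day 7. The ethanol levels thus stayed within a narrow range at background, and the cyclosporin A levels of day 7 lay above all others. From day 2 to day 7 the Shh level differed by 1.85 with cyclosporin A (SE 0.26, adjusted p = 0.0245) and by 0.24 with ethanol (SE 0.13, adjusted p = 0.517). Shh was the only one of the 6 members called in that comparison of the cyclosporin A channel, where 0.976% of all genes were called, and 0 members were called with ethanol, where 0.0352% of all genes were (members with an unadjusted p under 0.05: 0). The call was lost without either day 2 array (2, adjusted p = 0.0606 without replicate 1, and 1.71, adjusted p = 0.151 without replicate 2). The test of the day 7 ratio minus the day 2 ratio itself gave 1.62 for Shh in limma (SE 0.29, adjusted p = 0.198), which did not pass.

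**Figure D3:**
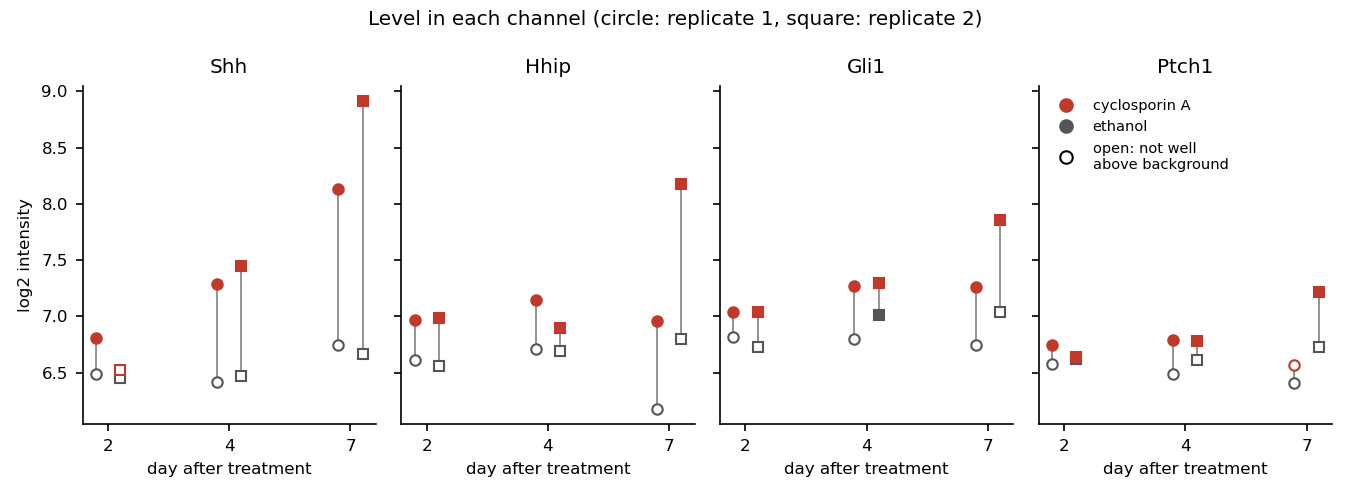
Log2 intensity (y axis) in the cyclosporin A channel (red) and the ethanol channel (grey) by day after treatment (x axis) for Shh, Hhip, Gli1 and Ptch1, with a grey line joining the channels of 1 array. Open symbols are not well above background. Of the ethanol points only that of Gli1 on day 4 replicate 2 is filled.

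Hhip, whose membrane-anchored product binds and withholds hedgehog ligands, had ratios of 0.36 and 0.43 at day 2, 0.44 and 0.21 at day 4, and 0.79 and 1.38 at day 7. All 6 were above 0 and the arrays of day 7 lay above the other 4. The mean was 0.4 at day 2 (adjusted p = 0.507), 0.33 at day 4 (adjusted p = 0.4) and 1.08 at day 7 (SE 0.16, adjusted p = 0.0246). Its ethanol level was 6.61 and 6.56 at day 2, 6.71 and 6.69 at day 4, and 6.18 and 6.8 at day 7. Its cyclosporin A level was 6.97 and 6.99, 7.15 and 6.9, and 6.96 and 8.18 on the same days. On day 7 replicate 1 the cyclosporin A level thus lay within the range of days 2 and 4, and the ethanol level was the lowest. From day 2 to day 7 the cyclosporin A level differed by 0.59 in limma (SE 0.35, adjusted p = 0.508). Hhip was measured at 1 spot per array. On processed signals its means were 1.17, 0.83 and 2.11 at days 2, 4 and 7, and the day 7 call was lost (adjusted p = 0.057). The deposited log ratios gave the same 3 means and kept it (adjusted p = 0.0481), and median centring gave 0.04 and 0.05 at days 2 and 4. Scale normalization ended the day 7 call (1.01, adjusted p = 0.0513). It lost its call on the day 7 slide alone (1.08, adjusted p = 0.056). Leaving out day 7 replicate 2 (0.79, adjusted p = 0.138) or either array of day 4 (1.08, adjusted p = 0.0645) also ended it.

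Ptch1, the gene of the ligand's receptor, had ratios of 0.17 and 0.02 at day 2, 0.3 and 0.17 at day 4, and 0.15 and 0.49 at day 7. All 6 were above 0, but the days overlapped, and under median centring the mean turned to -0.3 at day 2, -0.12 at day 4 and -0.08 over all days. The mean was 0.09 at day 2 (adjusted p = 0.845), 0.23 at day 4 (adjusted p = 0.448) and 0.32 at day 7 (SE 0.13, unadjusted p = 0.0441, adjusted p = 0.214). On day 7 replicate 1 its probe was well above background with cyclosporin A at 2 of 10 spots, so there it had no measured side in either channel.

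Smo encodes the transmembrane protein that passes the signal on. Its brighter probe had ratios of -0.21 and -0.19 at day 2, 0 and -0.24 at day 4, and -0.39 and 0.34 at day 7, and it was the only member whose ethanol and cyclosporin A signals both stood well above background on each of the 6 arrays. The arrays of day 7 pointed to opposite sides of 0, and the mean was -0.02 (SE 0.18, adjusted p = 0.955). A second, dimmer Smo probe had -0.06 and -0.51 at day 2, -0.47 and -0.64 at day 4, and -0.39 and 0.08 at day 7. Its day 4 mean of -0.55 (SE 0.17) had an unadjusted p of 0.0127 and an adjusted p of 0.222 with every probe tested by itself. Over all days the second probe was at -0.33 in the same limma fit (SE 0.1, unadjusted p = 0.0109, adjusted p = 0.065). The levels of the probes lay far apart: with ethanol on day 7 replicate 1 the log2 intensity was 13.3 for the brighter and 7.61 for the dimmer. Whether both measure the same transcript was not tested. The direction of the brighter Smo probe turned under median centring in place of loess, with 0.69 at day 7 (adjusted p = 0.0773, where the median of all genes was 0.17) and 0.68 over all days (adjusted p = 0.00495).

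Sufu, whose product holds Gli proteins in the cytoplasm, had ratios of -0.01 and -0.35 at day 2, -0.09 and -0.01 at day 4, and -0.1 and 0.22 at day 7. The means were -0.18, -0.05 and 0.06, with adjusted p of 0.7, 0.893 and 0.821. Its second probe was not well above background on any array and was not tested. The day 7 direction turned under median centring, to -0.15.

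Gli1, the transcription factor gene that is both an effector and a target of the pathway, had ratios of 0.22 and 0.31 at day 2, 0.48 and 0.28 at day 4, and 0.51 and 0.83 at day 7. All 6 were above 0, and both day 7 arrays lay above the other 4. For day 7 replicate 1 that margin was small, at 0.51 against 0.48 on day 4 replicate 1, with an SD over its spots of 0.31. The cyclosporin A level of Gli1 on that day 7 array was 7.26, against 7.27 and 7.3 at day 4. The mean was 0.27 at day 2 (adjusted p = 0.565), 0.38 at day 4 (adjusted p = 0.258) and 0.67 at day 7 (SE 0.13, adjusted p = 0.0488). Its cyclosporin A signal was well above background at 10 of 10 spots on every array, and its ethanol signal at 8 of 10 on day 4 replicate 2, at 4 of 10 on day 7 replicate 2 and at 0 of 10 on the other 4 arrays. The Gli1 call lay at the threshold. It was lost in 12 of 16 other settings, with adjusted p up to 0.249, among them each of the 6 fits that left out 1 array. Its ratio was 0.51 without day 7 replicate 2. Both the processed signals and the deposited log ratios gave 0.95, 0.77 and 1.49 at days 2, 4 and 7, with a day 7 adjusted p of 0.0532 on the former and 0.0442 on the latter. Under median centring the day 2 mean turned to -0.01.

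Gli3, which encodes the factor best known as a repressor when the signal is off, was printed at 10 spots. Its ratios were 0.01 and -0.06 at day 2, 0.1 and -0.05 at day 4, and -0.06 and 0.02 at day 7. With no filter on dim probes its day 7 mean was -0.02 (SE 0.09, adjusted p = 0.931). Since neither channel was well above background, these ratios say nothing of a level.

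At day 2, 0 of 6 members passed the test, 1 of them (Hhip) had an unadjusted p under 0.05, and 0 of all genes were called (0%; 2202 genes with an unadjusted p under 0.05). At day 4 it was 0 of 6, with 2 (Shh and Gli1) under 0.05 unadjusted, where 0.0044% of all genes were called. Averaged over all 3 days, Shh (0.98, SE 0.12, adjusted p = 0.0112), Hhip (0.6, SE 0.09, adjusted p = 0.0166) and Gli1 (0.44, SE 0.07, adjusted p = 0.0193) were called higher, each on 6 of 6 arrays. Ptch1 was at 0.22 (adjusted p = 0.0999). Over all days 13.1% of all genes were called and 9.67% called higher, and among genes never well above background with ethanol 20% were called. Without day 4 replicate 1, or without day 4 replicate 2, 0 members were called over all days, and Gli1 was not called without day 7 replicate 2 (0.38, adjusted p = 0.062). Under median centring Gli1 lost its call over all days (0.25, adjusted p = 0.0638) and Smo was called in its place, so 3 members were called but not the same 3. At a normexp offset of 16, 4 members were called, with Ptch1 added (0.34, adjusted p = 0.0489).

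No member's ratio passed the test of a difference between days. From day 2 to day 4 it was 0 of 6 members (0% of all genes), with Shh highest at 0.73 (SE 0.29, unadjusted p = 0.0396, adjusted p = 0.999). From day 4 to day 7 it was 0 of 6 (0.202% of all genes), with 0.88 for Shh (unadjusted p = 0.0189) and 0.76 for Hhip (unadjusted p = 0.0137), both at an adjusted p of 0.934. From day 2 to day 7 it was 0 of 6 (0.264% of all genes), with 0.68 for Hhip (SE 0.23, unadjusted p = 0.021, adjusted p = 0.683) and 0.4 for Gli1 (SE 0.18, adjusted p = 0.836). The ratios of the members called at day 7 are therefore not shown to differ between day 7 and the earlier days. In single channels, the Shh level with cyclosporin A did pass from day 2 to day 7, as given above. That call was lost when either day 2 array was left out and with the replicate block, and those days lay on different slides.

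**Figure D4:**
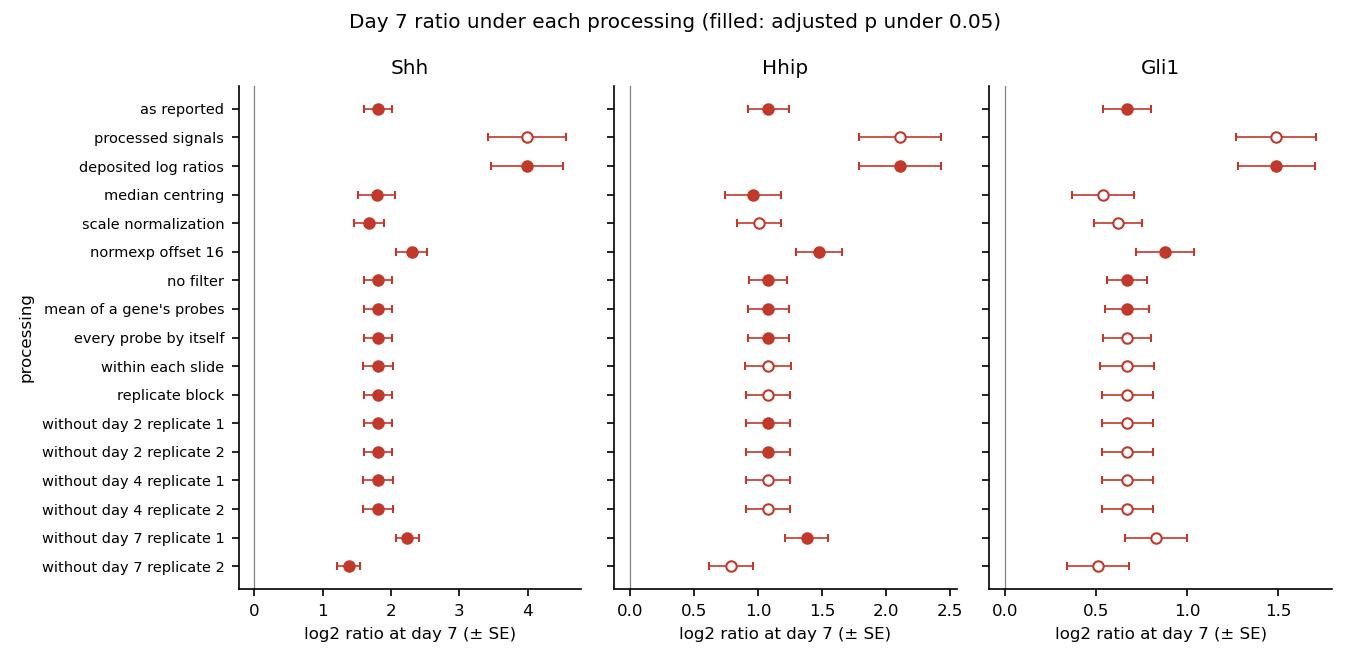
Day 7 log2 ratio (x axis) with its SE for Shh, Hhip and Gli1 as reported and under each other processing (y axis); filled points have an adjusted p under 0.05. Every point lies above 0. Shh is filled in 15 of the 16 other settings, Hhip in 9 and Gli1 in 4.

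Beyond the 8 genes, 40 other genes of the pathway were listed by role. Of these 35 had a probe and 34 were tested. At day 7, 5 of 34 were called higher and 0 lower, where 2.99% of all genes were called and 2.35% were called higher. Of the 5, Foxe1 was well above background with ethanol on only 1 array. It entered the test through the cyclosporin A channel, so this count and those by role below are a description. The median ratio of the 34 was 0.04, where the median over all genes was 0.03. In this list 18 of 34 genes had a ratio above 0, beside 54.1% of all genes.

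Among ligands and the genes that process and release them, 1 of 6 tested was called, and the median was -0.15. Scube1, of the family that helps release the ligand, had 0.71 and 1.05 at day 7 (mean 0.88, SE 0.14, adjusted p = 0.0331). Its second probe pointed the other way, at -0.25 (SE 0.11, adjusted p = 0.258 with every probe tested by itself), and with the probes of a gene averaged Scube1 was at 0.31 (adjusted p = 0.193). Scube2 was lowest, at -0.38 and -0.43 (mean -0.41, adjusted p = 0.348). Of the other hedgehog ligand genes, Dhh had -0.7 and 0.26 at day 7, on opposite sides of 0 (mean -0.22, SE 0.22, adjusted p = 0.577). Ihh was not well above background in either channel on the arrays of day 7, so its ratios there say nothing of a level.

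Among receptors and surface partners, 1 of 4 tested was called, with a median of -0.02. Gpc3, a glypican that competes for the ligand, had 0.93 and 0.82 at day 7 (mean 0.87, SE 0.12, adjusted p = 0.0183), with 1.47 under median centring, and on processed signals it missed the threshold (0.8, adjusted p = 0.0809). The lowest was Gas1, a co-receptor gene, at -0.01 and -0.6 (mean -0.3, adjusted p = 0.381). The co-receptor genes Boc and Cdon were at -0.25 and 0.21, and neither passed.

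Among 15 tested genes of the cilium and of the relay behind Smoothened, 0 were called, and the median was -0.04. They ranged from -0.64 for Grk2 (-1.02 and -0.26, adjusted p = 0.119), the kinase gene whose product phosphorylates Smoothened, to 0.38 for Prkaca (0.43 and 0.33, adjusted p = 0.127), which encodes a catalytic subunit of protein kinase A.

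Among genes known to respond to the pathway, 3 of 9 were called, and the median was 0.61. Mycn, a Myc family gene that drives cell growth, had 1.3 and 0.49 at day 2, 1.83 and 1.92 at day 4, and 2.56 and 3.36 at day 7. All 6 arrays were above 0, and the day 7 mean was 2.96 (SE 0.24, adjusted p = 0.00296). Its second probe was also called at day 7 but at 0.84 (SE 0.13, adjusted p = 0.0285 with every probe tested by itself), so the size depends on the probe. Foxe1, a forkhead factor gene of the hair follicle, was at 0.01 and 0.01 at day 2, 0.61 and 0.19 at day 4, and 1.12 and 2.14 at day 7, where the mean of 1.63 (SE 0.24, adjusted p = 0.0227) stands for a difference of at least 3.1-fold. Without day 7 replicate 2 Foxe1 was at 1.12 (adjusted p = 0.103), and on processed signals it was at 2.83 (adjusted p = 0.0369). Ccnd2, a cyclin of the early cell cycle, was at 0.5 and 0.64 (mean 0.57, SE 0.11, adjusted p = 0.0496). It kept its call in 2 of 17 other settings, with 0.29 on processed signals and 1.28 under median centring. With every probe tested by itself, this probe (adjusted p = 0.0531) and its further probes at 0.71 (adjusted p = 0.0674) and 0.31 (adjusted p = 0.191) did not pass. Lowest was Sox9, a stem cell and outer root sheath factor gene, at 0.12 and -0.21 (mean -0.05, SE 0.34, adjusted p = 0.945).

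Of the 5 genes called, Mycn kept its call in all 16 other settings that measured it, Foxe1 in 13 of 16, Gpc3 in 11 of 17 and Scube1 in 6 of 16. Without day 7 replicate 2 only Mycn of the 34 passed, without day 7 replicate 1 Mycn and Foxe1 did, and without either array of day 4 only Mycn did. At day 2 and at day 4, 0 of 34 were called, and over all days 8 of 34 were, all higher, where 13.1% of all genes were called and 9.67% called higher. For the differences between days, 0 of 34 were called in each.

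**Figure D5:**
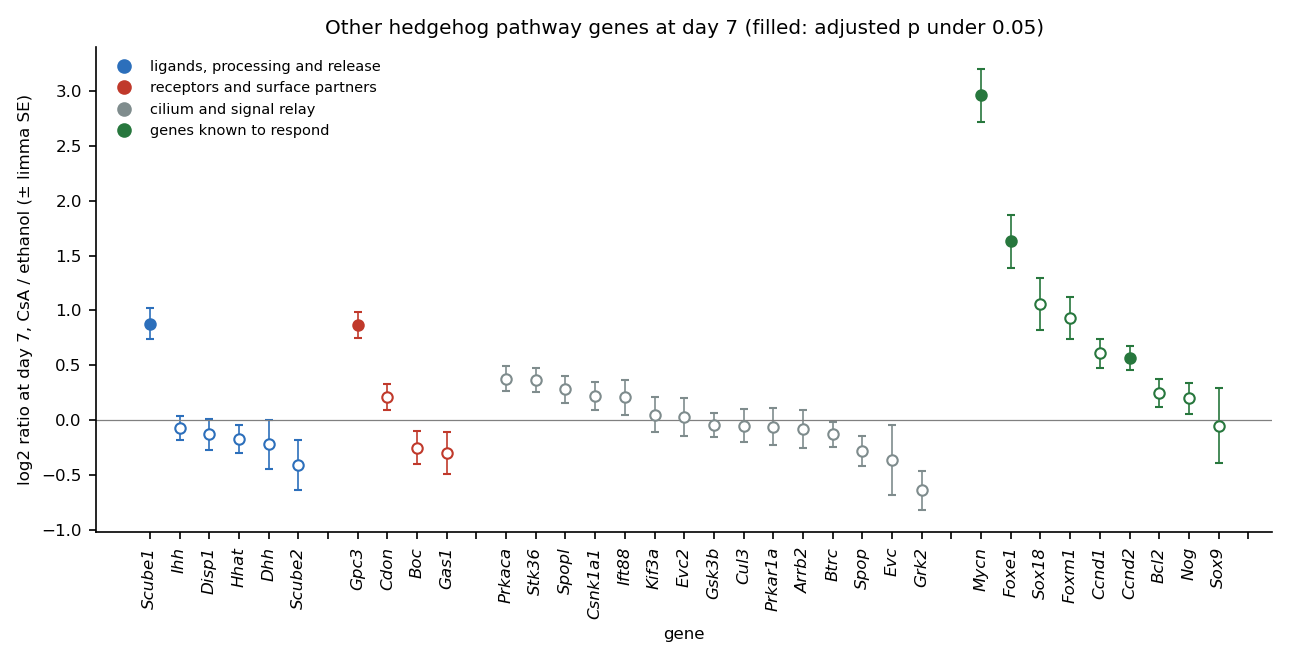
Day 7 log2 ratio of cyclosporin A over ethanol with its limma SE (y axis) for the 34 other pathway genes tested (x axis), coloured by role and ordered by ratio within it; filled points have an adjusted p under 0.05. The 5 filled points are all above 0, and 3 of them are genes known to respond to the pathway.

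Like Shh, Hhip and Gli1, most hair shaft, hair matrix, dividing-cell and melanocyte markers were called higher at day 7. Whether their courses over the days matched those of the hedgehog genes was not tested. At day 7, 2.35% of all genes were called higher, and 146 of 22749 were called lower. Of the hair shaft and inner root sheath genes 8 of 8 were called higher at day 7. Their median ratio was 0.29 and 0.1 on the arrays of day 2, 0.74 and 0.88 at day 4, and 4.76 and 4.96 at day 7, and the log2 of their summed signal at day 7 was 12.53 and 12.1 with ethanol and 17.93 and 17.64 with cyclosporin A. With ethanol 0 to 4 of these 8 genes were well above background at days 2 and 4, and 5 and 6 at day 7. Dividing-cell genes were higher at day 7 for 7 of 7, with median ratios of 0.47 and -0.02, 0.88 and 1.14, and 1.27 and 1.84 on the arrays of days 2, 4 and 7. Hair matrix regulators were higher for 5 of 6, melanocyte genes for 4 of 4 (median 2.22) and dermal papilla genes for 2 of 8 (median 0.4). Skeletal muscle genes were lower for 3 of 8 (median -0.72), and 0 of 4 Schwann cell genes, from the cells that make Dhh, were called. Also without a call were the adipocyte (0 of 6), T cell (0 of 4) and macrophage (0 of 3) genes. Of the skin genes 0 of 8 were called at day 7, but only 1 had a ratio above 0. Their median was -0.32, with -0.15 and -0.66 on the arrays of day 7. Some markers, among them Krt33a, Krt34, Hoxc13 and Corin, were never well above background with ethanol. Those entered the test through the cyclosporin A channel, so the marker counts are a description. The part of the cells marked by these genes in the hedgehog ratios was not tested.

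For each of 4 members the genes with a symbol whose 6 ratios lay nearest were found among 13358, by the root mean square difference. Nearest to Shh were Sgo1 (0.169), Plk1 (0.19) and Lef1 (0.192), whose day 7 means were 1.64, 1.56 and 1.57. Sgo1 and Plk1 act in mitosis and Lef1 is a Wnt transcription factor gene, and Plk1 and Lef1 are also in the marker lists above. Nearest to Hhip were Hoxc13 (0.14), Bhlhb9 (0.151) and Scd2 (0.158), of which Hoxc13 is also in the marker lists, as a hair matrix regulator. Nearest to Gli1 were Sorcs2 (0.0712), Edn1 (0.0742) and Zfp184 (0.09). Nearest to Ptch1 were Papola (0.0484), Gtf2f2 (0.051) and Igsf21 (0.0626), all with day 7 means between 0.26 and 0.32.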

How the data were processed

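Back skin RNA of 6 cyclosporin A and 6 ethanol samples was measured on 6 dual-colour Agilent arrays, with total RNA taken with Isogen per the labels. The deposited scanner files hold the median intensity and local background of each spot, and the submitters' processing notes name Agilent Feature Extraction 9.1. The authors' deposited values are the software's log10 ratio of Cy5 over Cy3, checked to equal the scanner files' ratio column (largest difference 0). Replicate numbers come from the titles, since every description reads the same number.

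In limma 3.58.1 (R 4.3.3, with the package data.table at 1.17.8) background was corrected by normexp with an offset of 50, and loess was applied per array. Control spots (1639) and outlier spots (15 to 126 per array) were left out, and the spots of a probe were averaged. A probe was kept if, on both arrays of some day, at least 0.5 of its spots in 1 channel or the other were well above background (27936 of 41174 probes), and the brightest kept probe stood for a gene. Probes were named by accession through a RefSeq table of GRCm38.p6, and 18156 received no name. The fit had 1 mean per day, eBayes and 3 residual degrees of freedom, and 160 genes lacked a value on some array. Alternatives were other signals, normalizations, filters and probe rules, each slide alone, a replicate block and leaving out each array. Channel levels were compared after loess and Aquantile. The fit was tested on simulated data.

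The hedgehog genes, the other lists and the tests were chosen with earlier results of these data known. Of the pathway genes chosen, 1 is not reported here and was left out of the list and its counts. Named from the list of 40 were genes called at any day or for day 7 minus day 2, and the highest and lowest day 7 ratio of each role; Ihh, Dhh, Boc, Cdon, Prkar1a and Ulk3 were named after their values were seen.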

Additional observations from a re-analysis of the deposited data

How the results depend on the processing

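All 3 day 7 calls among the hedgehog genes kept their direction in every setting that tested them, and of the 3 Shh lost its call in 1. The number of members called at day 7 was 0 on processed signals and 0 with the stricter filter, which requires both channels of every array to be well above background (it left Smo alone), 1 under scale normalization, 1 within each slide and 1 with the replicate block, and 1 to 2 when leaving out 1 array. Over all days it was 0 with that filter, 4 at normexp offset 16 and 0 to 3 when leaving out 1 array. The 1 member called in the cyclosporin A channel became 0 with the replicate block and 0 to 2 when leaving out 1 array. The 5 other pathway genes called at day 7 became 2 on processed signals, 2 on deposited log ratios, 11 under median centring, 3 under scale normalization, 1 with the stricter filter, 3 with a gene's probes averaged, 3 within each slide, 3 with the replicate block, and 1 to 4 when leaving out 1 array. Except for the filters and fits with fewer samples, the cause was not tested. Where 1 array was left in a day, it was assumed to vary like the others. The settings for the other pathway genes and for single channels were chosen after seeing the data.

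Median centring raised the median of all genes to 0.39 at day 2, 0.27 at day 4, 0.17 at day 7 and 0.28 over all days. Under it the direction turned at day 2 for Shh (-0.2), Ptch1 (-0.3), Smo (0.66) and Gli1 (-0.01), at day 4 for Ptch1 (-0.12) and Smo (0.69), at day 7 for Smo (0.69) and Sufu (-0.15), and over all days for Ptch1 (-0.08) and Smo (0.68). The differences between days turned for Hhip (day 4 minus day 2, 0.01) and Smo (day 7 minus day 4, 0). On processed signals it turned for Shh at day 2 (-0.15), Smo at day 7 (0.15) and over all days (0), Sufu over all days (0.23), Gli1 for day 4 minus day 2 (-0.18) and Ptch1 for day 7 minus day 4 (-0.05). On deposited log ratios it turned for Smo (0.15 and 0), Sufu (0.23) and Gli1 (-0.18) likewise, at normexp offset 16 for Smo at day 7 (0.01), and with probes averaged for Smo, day 4 minus day 2 (-0.1). When leaving out 1 array, Smo ranged at day 7 from -0.39 to 0.34, over all days from -0.23 to 0.01, from day 2 to 4 from -0.04 to 0.19, from day 4 to 7 from -0.27 to 0.46 and from day 2 to 7 from -0.19 to 0.54. Sufu ranged from -0.1 to 0.22 at day 7, from -0.04 to 0.3 from day 2 to 4 and from -0.05 to 0.27 from day 4 to 7. Hhip ranged from -0.19 to 0.05 from day 2 to 4, and Ptch1 from -0.08 to 0.25 from day 4 to 7.

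Of all genes, 680 were called at day 7 (78.5% higher), against 221 on processed signals, 287 on deposited log ratios (91.3% higher), 4966 under median centring, 317 under scale normalization, 371 with the stricter filter, 409 within each slide and 330 with the replicate block. The labels do not say that equal replicate numbers of different days share anything. Their deviations correlated at 0.01 between days 2 and 4, -0.28 between days 2 and 7 and -0.02 between days 4 and 7. These values cannot show whether such arrays shared a batch. With the replicate block Hhip (1.08, adjusted p = 0.0526) and Gli1 (0.67, adjusted p = 0.101) lost their day 7 calls and Shh did not (1.81, adjusted p = 0.0269). Signal over background limits the ratios of Shh, Ptch1, Hhip and Gli1, whose ethanol side is a bound at day 7.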
